A study of Mus musculus with 21 samples.

Results

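The genes described here encode the proteins of the cytosolic ribosome, the particle of small and large subunits that makes nearly all proteins of a cell. They were chosen by symbol alone: names that start with Rpl or Rps and a digit, and Rplp0, Rplp1, Rplp2 and Rpsa, without pseudogene names holding "-ps" and without the kinase and binding protein names that share the prefix. The rule took 91 of the 41128 gene symbols of the table, and 89 of them had at least 1 read. They comprised 31 genes of the small subunit, 43 of the large subunit, 3 of the stalk (the flexible arm of the large subunit that recruits elongation factors) and 14 paralogs or retrocopies. A retrocopy is a gene copy made from a reverse-transcribed mRNA.

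RNA was sequenced from striatal tissue of mice that the labels call wild type, collected 3 weeks after adeno-associated virus (AAV, a gene carrier that does not replicate) was injected into the striatum, a deep forebrain nucleus whose principal cells are the medium spiny neurons. In set A, 3 libraries each were labelled WT, Cas9 and GCas9, and in set B 4 libraries each were labelled GFP, Cas9 and GCas9, where the label names the viral injection. Cas9 is a bacterial nuclease that cuts DNA where a guide RNA directs it. GFP, a jellyfish protein that fluoresces green, is what the label names for the control virus of set B. The series title speaks of a Cas9 with a shortened half-life, but the labels do not spell out GCas9, name a promoter or guide, or say which virus, if any, WT mice received. They give the age as 3 weeks in one field and 3 months in another, and do not say whether animals were pooled, so p-values measure the spread between libraries.

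Libraries of set A held from 20337070 to 28045057 reads on genes and those of set B from 6091590 to 11069902, and the Cas9 libraries of set B, with at most 7694195, were shallower than every other library of that set. The sets had been scaled apart, so levels, which are the authors' normalized read counts, are compared within a set. Markers of the labelled tissue were present throughout: 9 spiny neuron markers had reads in every library, with summed normalized counts between 222842 and 281855 (set A) or between 91196 and 116821 (set B). Sums of 10 interferon response genes differed between libraries of 1 group, from 756 to 37434 with GCas9 in set A and from 997 to 8826 with GFP in set B. In Cas9 library 1, markers of choroid plexus, the epithelium beside the striatum that makes cerebrospinal fluid, summed to 294129 in set A and 10910 in set B. The other libraries reached at most 11650 in set A (GCas9 library 1) and 714 in set B. WT libraries were at 787 to 1049.

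Ribosomal protein genes are among the most steadily transcribed genes of every cell type, and most of their core products are needed in similar numbers. Their mRNAs start, as a rule, at a C followed by a run of pyrimidines (C or T), the 5′ terminal oligopyrimidine tract. Through it the growth kinase mTOR, by way of the repressor Larp1, sets how much of these mRNAs is translated. In neurons they are also known in axons and dendrites, where ribosomes are partly renewed on site.

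The start regions of 7 genes that the results turn on are shown to let a reader see the tract, with 30 bases before and 20 bases from the RefSeq start on GRCm38.p6. Capitals mark the C-led pyrimidine run nearest the start.
Rpl39 (chrX:37085203-37085252, minus strand): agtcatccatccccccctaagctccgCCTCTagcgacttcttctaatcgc
Rpl15 (chr14:18270967-18271016, minus strand): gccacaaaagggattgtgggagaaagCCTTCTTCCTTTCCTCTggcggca
Rps9 (chr7:3704011-3704060, plus strand): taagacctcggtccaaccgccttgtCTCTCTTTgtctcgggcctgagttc
Rps6 (chr4:86857348-86857397, minus strand): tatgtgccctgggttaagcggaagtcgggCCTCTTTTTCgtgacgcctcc
Rps27 (chr3:90213629-90213678, minus strand): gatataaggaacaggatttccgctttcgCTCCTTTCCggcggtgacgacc
Rps27l (chr9:66946056-66946105, plus strand): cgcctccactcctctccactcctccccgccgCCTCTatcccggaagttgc
Rplp0 (chr5:115559437-115559486, plus strand): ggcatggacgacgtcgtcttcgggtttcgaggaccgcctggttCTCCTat

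RefSeq lists another start for Rps27l (first base shown 66946383 on chromosome 9), where no such run was found. In the starts printed, the run began within 5 bases of the annotated start in the first 6 of these and at base 14 in Rplp0. RefSeq start regions of 300 bases (250 before and 50 from the start) were found for 66 of the 91 genes by symbol. A C followed by at least 4 pyrimidines on the gene's strand, within 20 bases of the start, was present in 53 of 66 (80.3%), in 60.29% of 68 mitochondrial ribosomal protein genes and in 52.59% of all 27025 genes with such a region. The letters CCGGAAG, the core bound by ETS family factors, were in 39.39% of the ribosomal protein regions on either strand, 36.76% of the mitochondrial ribosomal ones and 9.928% of all. AANATGGCG, the core of the factor Yy1, was in 10.61%, 14.71% and 2.764%, and TATAAA in 10.61%, 7.353% and 15.67%. Matches of different motifs can share bases, and a match is a description of letters, not of binding.

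Ribosomal protein genes received between 0.933 and 1.14% of gene reads per library in set A and between 0.326 and 0.452% per library in set B. Of the 91 genes, 84 reached a mean normalized count of 10 in set A and 82 in set B, and were tested there. All 82 were tested in both sets, and Rpl37rt and Rpl3l in set A only. The other 7 were Rps12l1, Rps12l2, Rpl10l, Rps27rt, Rps3a2, Rpl39l and Rpl24, whose means were below 10 in both sets. Rpl24, a core protein of the large subunit, was listed at 0.989 to 6.03 in set A and at 0 to 2.41 in set B, and in the GENCODE M21 annotation it overlaps the gene model Gm28037 on its strand. Such overlap leaves the level of Rpl24 uncertain.

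Per kilobase of annotated exon, the median gene tested was at a normalized count of 3017 in set A and 395 in set B. Rplp1, an acidic protein of the stalk, was highest in set A at 20314 per kb, followed by Rps29 at 13668 and Rps15 at 12510, both of the small subunit. In set B, Rps29 at 1438, Rplp1 at 1290 and Rpl13 at 1243 per kb led, Rpl13 sharing its strand and place with the gene model Gm20388. The lowest levels per kb in set A were those of Rpl3l (16.0), Rpl37rt (16.5) and Rps3a3 (171), a muscle paralog and 2 retrocopies. The lowest in set B were Rps3a3 (25.8), Rps15a (28.2) and Rps20 (45.6). The last pair are core genes whose annotated exons, 5179 and 3706 nt, are long against a median of 886.5 nt over the genes tested in set A.

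**Figure D1:**
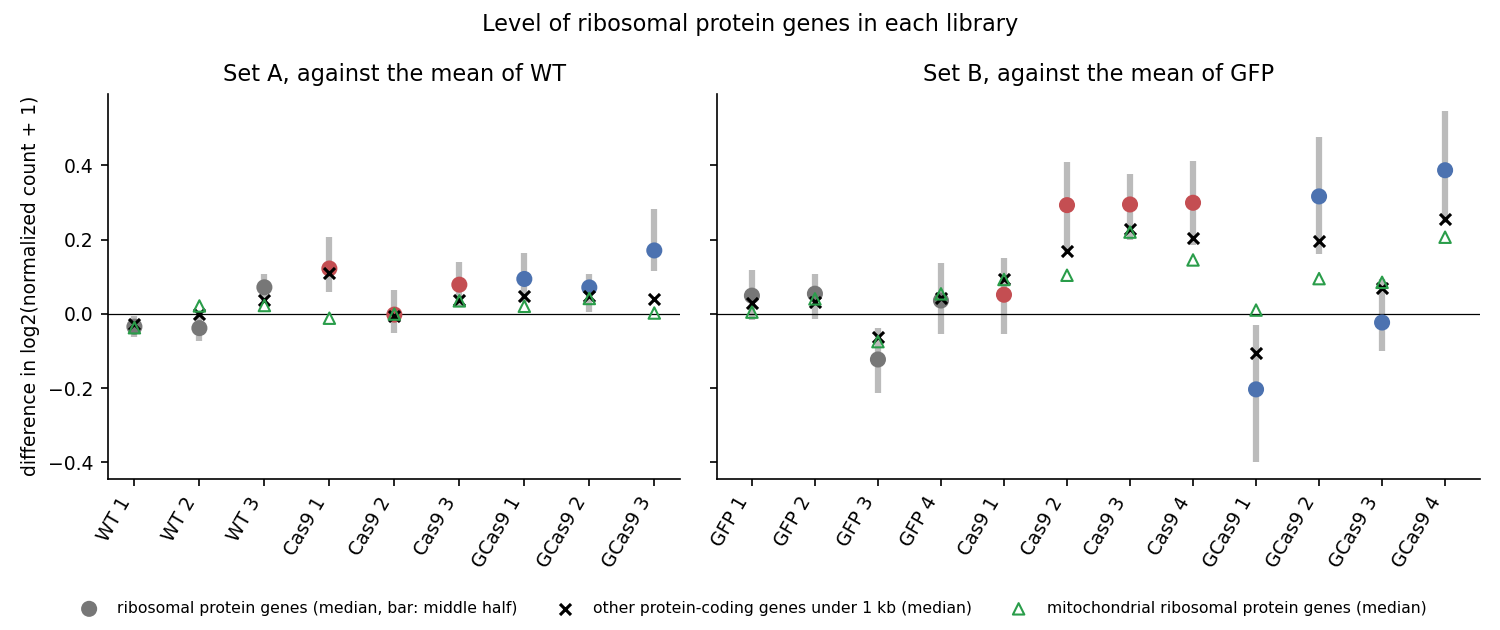
Median difference of the ribosomal protein genes tested (84 in set A, 82 in set B) from the mean of the control group, on the log2(normalized count + 1) scale, for each library, with bars from the lower to the upper quartile of the genes. Crosses are other protein-coding genes under 1 kb and triangles mitochondrial ribosomal protein genes. Set A lies between -0.04 and 0.17, and set B between -0.20 (GCas9 1) and 0.39 (GCas9 4).

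The first comparison asked how Cas9 virus libraries differ from WT libraries in set A. Ribosomal protein genes had a median log2 fold change of 0.07 with Cas9, against -0.003 over all 15924 genes tested, and 67 of 84 (79.76%) had a fitted difference above 0 against 49.1% of all genes. By limma 0 of 84 passed an adjusted p of 0.05, against 1 gene of all tested (0.00628%). At an unadjusted p under 0.05, 7 were higher and 0 lower, against 6.17% of all genes higher and 5.65% lower. In 16 all Cas9 libraries lay above all WT libraries and in 0 below them, against 10.7% and 8.86% of all genes. edgeR called 0 of the 84 and 0 genes in all (0.0%), and DESeq2 called Rpl39 alone (adjusted p = 0.0176), among 116 genes (0.728%). In bulk tissue, more cells of a type and more RNA per cell cannot be told apart.

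The 5 genes of smallest p did not pass. Rpl39, a short basic protein that lines the exit tunnel of the large subunit, was at 574, 634 and 637 normalized counts in the WT libraries, 847, 732 and 787 with Cas9 and 745, 759 and 791 with GCas9. All 6 virus libraries thus lay above all 3 WT libraries. The log2 fold change was 0.36 ± 0.07 (SE) for Cas9 (limma adjusted p = 0.405) and 0.32 ± 0.07 for GCas9 (limma adjusted p = 0.63). The gene spans chrX:37082520-37085402.

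Rpl30, a protein of the large subunit known to repress splicing of its own transcript in yeast, was at 1429, 1471 and 1545 in WT, 1742, 1624 and 1658 with Cas9 and 1757, 1709 and 1809.5 with GCas9. The groups of virus libraries again did not overlap WT, and the fold changes were 0.18 ± 0.05 and 0.25 ± 0.05 (chr15:34440505-34443640). Rps27a, made as a fusion of ubiquitin with a protein of the small subunit (chr11:29545846-29548109), was at 2714 ± 38.5 in WT, 2939 ± 43.3 with Cas9 and 3073 ± 42.4 with GCas9 (SD, n = 3 each), which gave 0.11 ± 0.04 and 0.18 ± 0.04. Its within-group coefficient of variation, 1.43%, was the lowest of the 84. Rpl23a, which docks the signal recognition particle and chaperones at the tunnel exit, was at 1310.5 ± 11.6, 1484 ± 30.1 and 1478 ± 47.3, or 0.18 ± 0.04 and 0.17 ± 0.04.

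Rps27l, the paralog of Rps27 that is a known p53 target, was at 129, 135 and 127 in WT, 225, 145 and 182 with Cas9 and 184, 162 and 210.4 with GCas9. It had the highest fitted difference of the 84 in both comparisons with WT, 0.47 ± 0.17 and 0.50 ± 0.17, and every virus library lay above the WT libraries. Its partner Rps27 differed by 0.07 ± 0.09 and 0.15 ± 0.09, with overlapping libraries. In set B Rps27l was at 133, 119, 89.6 and 106 with GFP, 103, 150.1, 169 and 131 with Cas9 and 65.3, 173, 94.7 and 148 with GCas9, so that the groups overlapped there (0.29 ± 0.26 and 0.02 ± 0.26).

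**Figure D2:**
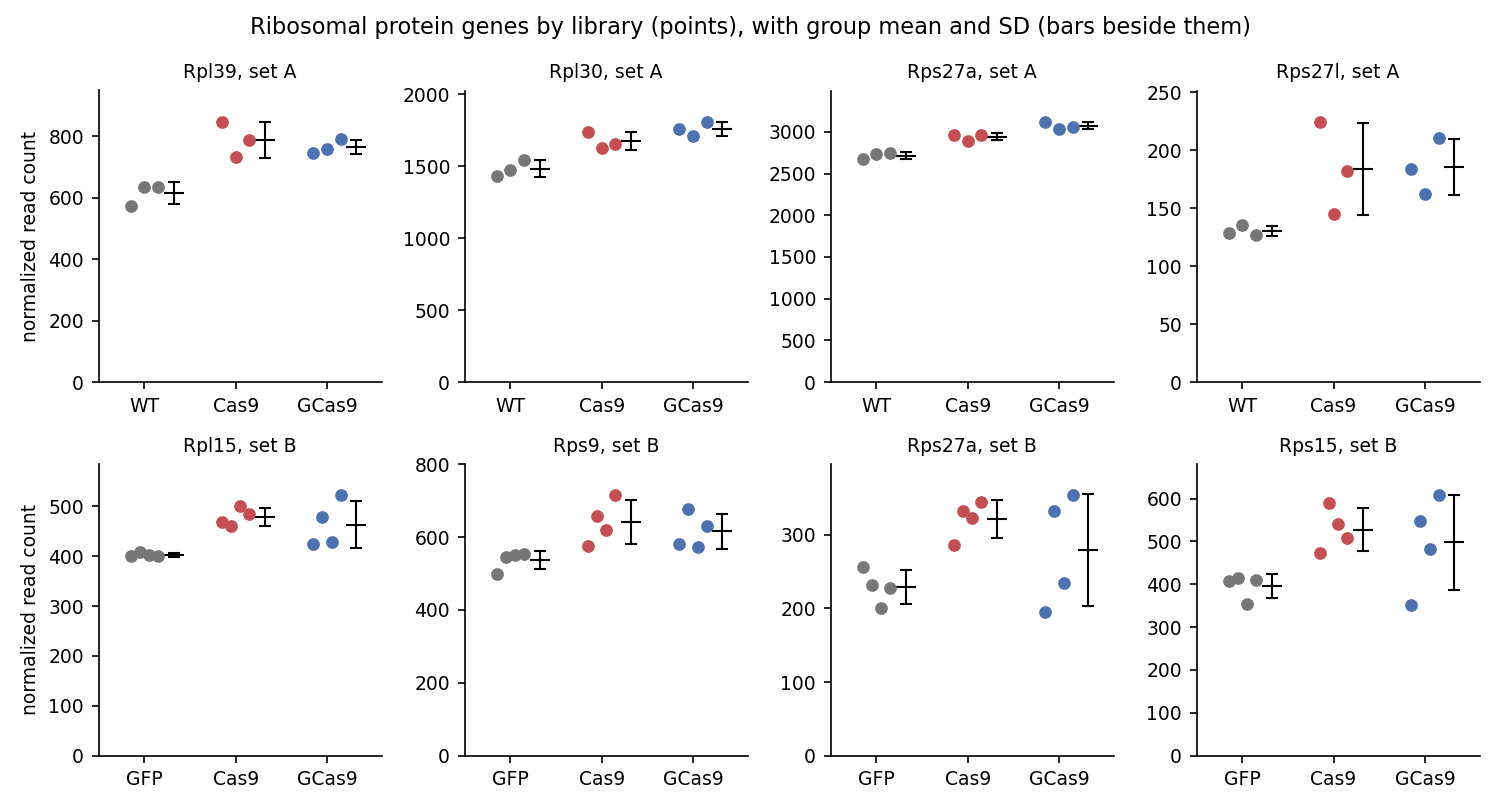
Normalized read counts of 4 ribosomal protein genes in each library of set A (top) and 4 in set B (bottom), on axes that start at 0, with group mean and SD beside the points. In the top row no virus library lies within the range of WT, and in the bottom row the Cas9 libraries lie above all GFP libraries. GCas9 libraries lie above GFP for Rpl15 and Rps9 and spread over the GFP range for Rps27a and Rps15.

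GCas9 was set against the same WT libraries. The median was 0.12 against -0.0003 over all genes, 75 of 84 genes were above 0 against 49.9% of all genes, and all 31 small subunit genes were (median 0.13), as were 37 of 42 large subunit genes (median 0.12). limma called 0 of 84 and 1 gene in all (0.00628%), with 27 higher and 0 lower at an unadjusted p under 0.05, against 4.44% of all genes higher and 2.33% lower. All GCas9 libraries were above all WT libraries in 26 genes and below them in 1 (Rpl37rt), against 9.16% and 7.02% of all genes. edgeR called 0 of the 84 and 1 gene in all (0.00628%). DESeq2 called 3 of them, Rps27a (adjusted p = 0.00291), Rpl30 (adjusted p = 0.00745) and Rpl39 (adjusted p = 0.0389), among 218 genes (1.37%). Rplp2, a stalk protein and one of the 5 of smallest p, was at 3172 ± 111 in WT and 3688 ± 248 with GCas9 (SD, n = 3 each, 0.22 ± 0.06).

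Single libraries moved these medians. The Cas9 median was 0.03 without Cas9 library 1, the one with the highest choroid plexus sum. It was 0.11 without Cas9 library 2, whose own median difference from the WT mean was -0.002. Without Cas9 library 2 limma called 7 genes in all, none of them ribosomal protein genes. The count higher at an unadjusted p under 0.05 was 4 without Cas9 library 1, against 2.87% of all genes higher in that fit. It was 4 without WT library 1 (3.69%), 13 without Cas9 library 2 (10.7%) and 15 without WT library 3 (3.59%). The GCas9 median stayed between 0.08 and 0.16 when any 1 library was left out. Its count of 27 higher became 11 without GCas9 library 3, against 2.16% of all genes higher in that fit. It became 12 without WT library 1 (2.39%) and 13 without WT library 2 (2.68%).

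Markers of several cell types lay apart from WT in the virus groups. For microglia and macrophages 15 of 15 had a fitted difference above 0 in both comparisons, and all had reads in every library. By limma 1 of the 15 passed in each, the only gene that did among all 15924 tested (0.00628%). The list was chosen with earlier results of these data known. Sums of the 15 were 8952 to 10854 in WT, 13246 to 20381 with Cas9 and 12960 to 29927 with GCas9. Of 10 interferon response genes 10 were above 0 in both, with sums of 472 to 508 in WT, 772 to 3870 with Cas9 and 756 to 37434 with GCas9. B and plasma cell markers were above 0 in 7 of 7 in both (medians 2.83 and 2.84), with sums of 97.2 to 155 in WT, 452 to 9010 with Cas9 and 1242 to 21593 with GCas9. T cell markers were above 0 in 7 of 8 in both. Astrocyte markers were above 0 in 7 of 7 in both (medians 0.33 and 0.22), with sums of 72108 to 76522 in WT, 86557 to 95691 with Cas9 and 85064 to 92460 with GCas9. Oligodendrocyte markers were above 0 in 8 of 8 with Cas9, all at an unadjusted p under 0.05 (median 0.48), and in 1 of 8 with GCas9 (median -0.04), with sums of 195684 to 235607 in WT, 228536 to 378407 with Cas9 and 200711 to 216790 with GCas9. Neuron markers were below 0 in 5 of 5 in both (medians -0.16 and -0.10), and spiny neuron markers in 8 and 9 of 9. Endothelial markers were above 0 in 5 and 4 of 5, choroid plexus markers in 7 of 7 in both, red cell markers in 1 and 0 of 5 and cycling cell markers in 0 and 4 of 4. GCas9 library 3, with the highest interferon sum, also had the highest ribosomal protein median, 0.17 above the WT mean. The part of these cells in the ribosomal protein levels was not tested.

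The second pair of comparisons set Cas9 and GCas9 virus against GFP virus in set B. With Cas9 the ribosomal protein genes had a median log2 fold change of 0.22, against -0.005 over all 15428 genes, and 80 of 82 were above 0 against 48.7% of all genes. They included all 31 small subunit genes (median 0.25), all 42 large subunit genes (median 0.22) and the 3 stalk genes (median 0.24). By limma 0 of 82 passed, nor did any gene (0.0%), and 16 were higher and 0 lower at an unadjusted p under 0.05, against 3.23% of all genes higher and 3.01% lower. In 16 all 4 Cas9 libraries lay above all 4 GFP libraries and in 0 below them, against 2.63% and 2.05% of all genes. edgeR called 0 genes (0.0%) and DESeq2 14 (0.0907%), none of them among the 82.

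Rpl15, a long protein buried in the core of the large subunit (chr14:18267823-18271391), had the smallest p. It was at 401, 408, 402 and 400.4 with GFP, 469, 461, 502 and 485 with Cas9 and 424, 479, 429 and 522 with GCas9. The GFP libraries lay close together and below every library of the other groups, which gave 0.25 ± 0.08 for Cas9 (limma adjusted p = 0.781) and 0.20 ± 0.08 for GCas9 (limma adjusted p = 0.739). In set A the same gene was at 1559 ± 54 in WT, 1538 ± 20.7 with Cas9 and 1518 ± 45.1 with GCas9 (SD, n = 3 each), with no difference beyond that spread (-0.02 ± 0.05 and -0.04 ± 0.05).

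Rps9, which sits at the base of the small subunit (chr7:3703993-3706897), was at 499, 545, 551 and 552 with GFP, 575, 659, 618 and 715 with Cas9 and 581, 676, 574 and 630.0 with GCas9. All Cas9 and all GCas9 libraries again lay above all GFP virus libraries, by 0.25 ± 0.08 and 0.19 ± 0.08. With GCas9, Rpl15 and Rps9 were the only 2 of 82 genes to do so, against 2.5% of all genes. Rps27a was at 256, 232, 200.2 and 227 with GFP and 286, 332, 322 and 345 with Cas9, a difference of 0.49 ± 0.16. With GCas9 it was at 196, 333, 234 and 354, so 2 libraries lay with GFP and 2 with Cas9 (0.25 ± 0.16). Rpl31 (0.38 ± 0.12) and Rps7 (0.35 ± 0.12), proteins of the large and small subunit, were the others of the 5 smallest p, and none passed.

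GCas9 against GFP gave a median of 0.13 against -0.003 over all genes, with 77 of 82 above 0 against 49.1% of all genes. limma called 0 of 82 and 0 genes in all (0.0%), and 6 were higher and 0 lower at an unadjusted p under 0.05, against 3.71% of all genes higher and 2.76% lower. All GCas9 libraries were above all GFP libraries in 2 genes (Rpl15 and Rps9) and below them in 0, against 2.5% and 1.66% of all genes. edgeR called 0 genes (0.0%) and DESeq2 41 (0.266%), none of them among the 82. Beside Rpl15 and Rps9, the smallest p were those of Rpl12 (0.24 ± 0.10), a protein of the stalk base, Rpl11 (0.22 ± 0.10), which binds the p53 regulator Mdm2, and Rps15 (0.30 ± 0.14) of the small subunit head. None passed.

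**Figure D3:**
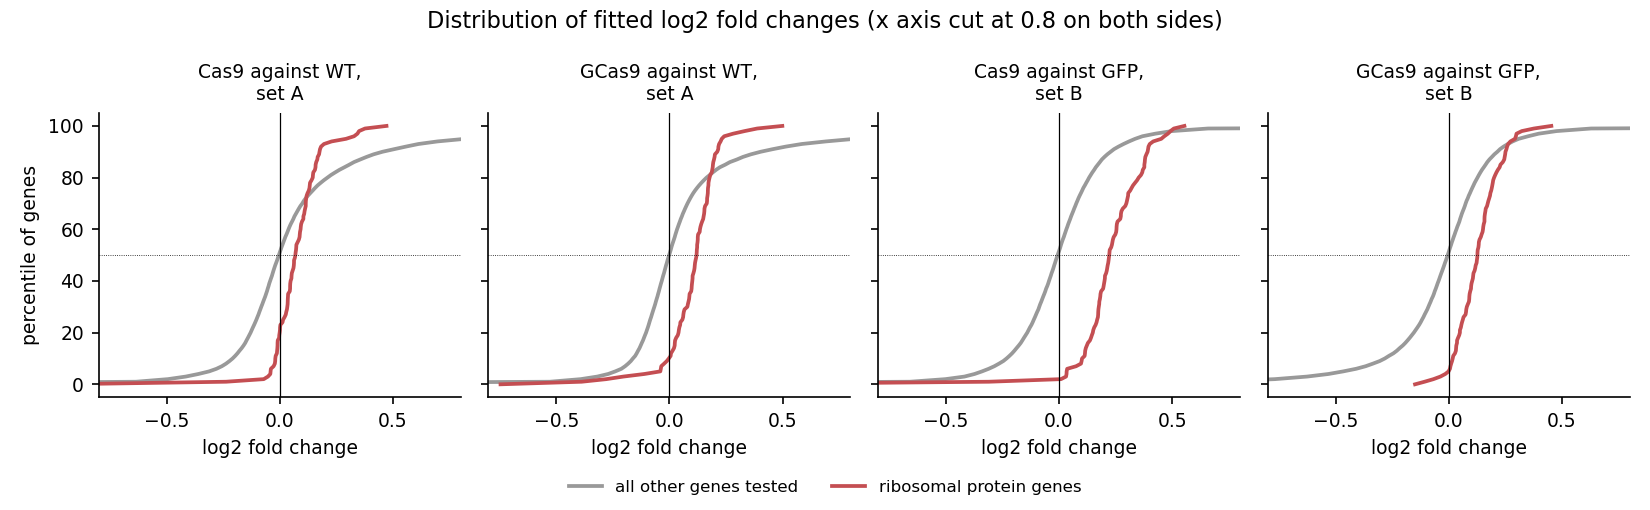
Cumulative distribution of fitted log2 fold changes of the ribosomal protein genes tested (red) and of all other genes tested (grey) in the 4 comparisons with a control group. The medians of the red curves are 0.07, 0.12, 0.22 and 0.13, while the grey curves cross their median close to 0.

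The libraries of a group did not lie together in set B. The median difference from the GFP mean was 0.05 in Cas9 library 1, the one with the highest choroid plexus sum, and 0.293 to 0.299 in the other Cas9 libraries. With GCas9 it was -0.20, 0.32, -0.02 and 0.39 in libraries 1 to 4, so 2 libraries lay at or below the GFP level and 2 at the level of the higher Cas9 libraries. Among GFP libraries, library 3 was at -0.12 and the others between 0.04 and 0.05. The GCas9 median against GFP was 0.25 without GCas9 library 1 (limma then called 3 genes in all, none of them ribosomal protein genes), 0.06 without library 2, 0.04 without library 4 and 0.07 without GFP library 3. The count of 6 higher at an unadjusted p under 0.05 was 24 without GCas9 library 1, against 5.09% of all genes higher in that fit. It was 1 without library 2 (3.99%), 0 without library 4 (2.45%) and 2 without GFP library 1 (2.4%) or 3 (2.89%). The Cas9 median against GFP stayed between 0.18 and 0.29. Its count of 16 higher became 27 without Cas9 library 1, against 3.54% of all genes higher in that fit. It was 10 without Cas9 library 2 (2.6%), 9 without Cas9 library 3 (2.78%) and 8 without GFP library 3 (2.36%). When only the groups compared were fitted it was 39 (3.95%).

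Of 15 microglia markers 7 were above 0 with Cas9 and 5 with GCas9, and of 10 interferon response genes 1 and 0. B and plasma cell markers were above 0 in 5 and 0 of 7 (medians 0.44 and -1.13), T cell markers in 3 and 1 of 5, and cycling cell markers in 1 and 0 of 4 (medians -0.20 and -0.93). Oligodendrocyte markers were above 0 in 8 and 5 of 8, astrocyte markers in 6 and 5 of 7, endothelial markers in 3 and 5 of 5, red cell markers in 5 of 5 in both, choroid plexus markers in 6 and 4 of 6, neuron markers in 1 and 4 of 5 and spiny neuron markers in 5 and 8 of 9. GCas9 library 4, with the highest ribosomal protein median of set B (0.39), had the lowest interferon sum of the set, 494. Cas9 library 3, with the highest interferon sum of set B, 14874, had a ribosomal protein median of 0.29. The part of these cells in set B was not tested.

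These swings were larger for short transcripts. In set B, the 19 genes tested with under 600 nt of annotated exon had library medians from -0.43 (GCas9 1) to 0.59 (GCas9 4), the 33 genes of 600 to under 1000 nt from -0.22 to 0.38, and the 30 genes from 1000 nt from -0.07 (GFP 3) to 0.31. In set A the same classes ran from -0.05 to 0.13, -0.05 to 0.18 and -0.03 to 0.20, with no such order. Cas9 against GFP gave medians of 0.32, 0.22 and 0.20 from the short to the long class, and GCas9 against GFP gave 0.13, 0.13 and 0.12. Other protein-coding genes under 1 kb lay on the same side: in set B 515 of 625 were above 0 with Cas9 (82.4%, median 0.17) and 442 with GCas9 (70.72%, median 0.09), while genes from 1 kb had medians of -0.01 in both. In set A the short genes had medians of 0.04 in both comparisons with WT, where the ribosomal protein medians were 0.07 and 0.12. These length classes were chosen after the values were seen, and the part of length in the group differences was not tested.

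**Figure D4:**
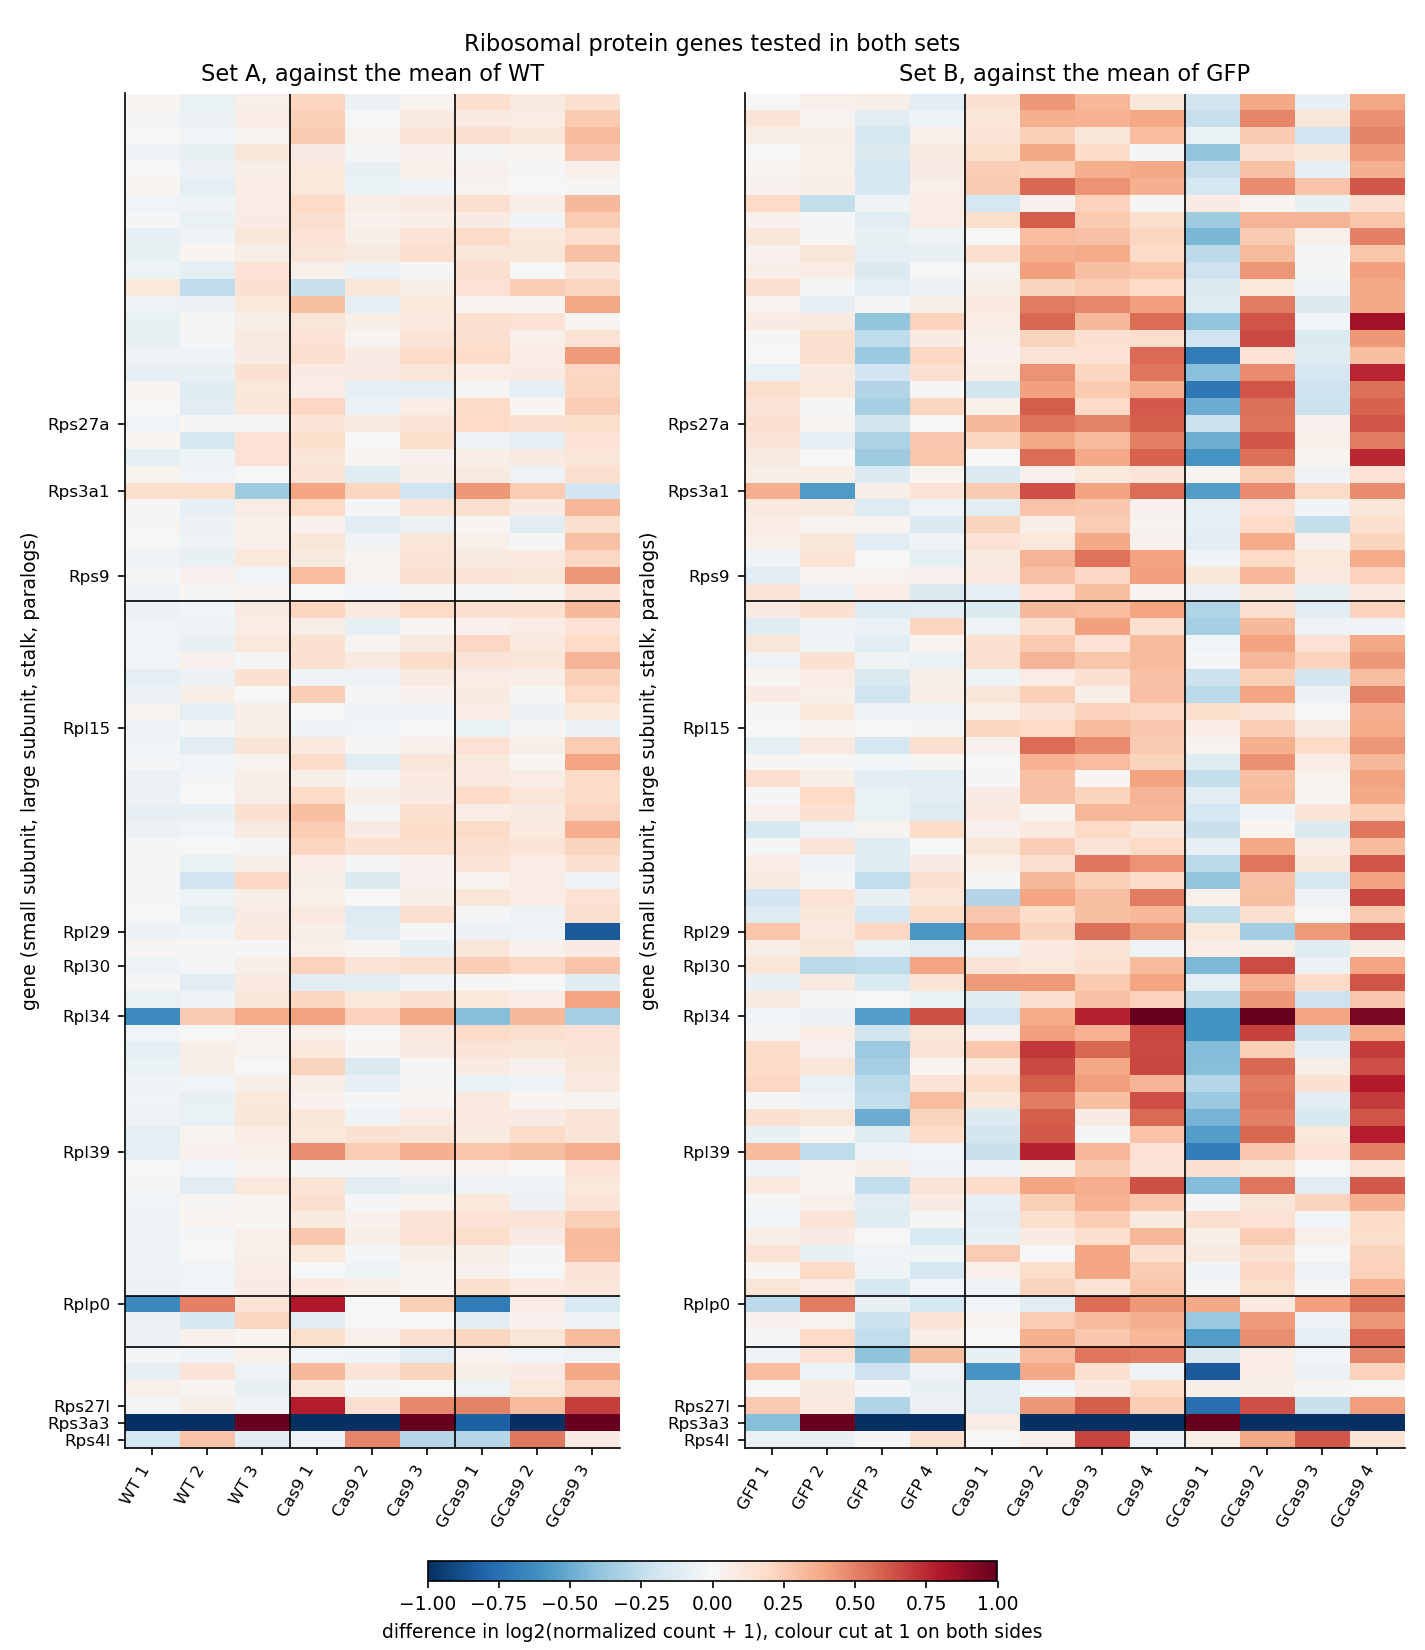
Difference of 80 ribosomal protein genes tested in both sets from the mean of the control group in each library, on the log2(normalized count + 1) scale, ordered by role, with 12 genes labelled. Columns of set B are red or blue nearly throughout (Cas9 2 to 4, GCas9 2 and 4 red, GCas9 1 and GFP 3 blue), and single rows such as Rpl34, Rplp0 and Rps3a3 break from their column.

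Within groups the genes varied together. After subtraction of group means, the correlation of a gene with the median of the other ribosomal protein genes had a median of 0.765 over the 9 libraries of set A and 0.858 over the 12 of set B, and was above 0.5 in 67 of 84 and 71 of 82 genes. The same measure had a median of 0.016 and -0.019 over other genes, of which 24.13% and 12.24% were above 0.5, and of -0.012 and 0.427 over 76 mitochondrial ribosomal protein genes. The lowest values were those of Rps3a1 (-0.58), Rps4l (-0.47) and Rpl29 (-0.38) in set A and Rps3a3 (-0.54) in set B. All points share libraries and their scaling, so these are descriptions of these libraries. The median within-group coefficient of variation of a gene was 6.51% in set A and 15.1% in set B.

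The third comparison set GCas9 against Cas9. In set A, 71 of 84 genes were above 0 with GCas9 (median 0.05, against 54.3% and 0.01 for all genes), and in set B 13 of 82 (median -0.10, against 50.6% and 0.002 for all genes). limma called 0 genes in either set (0.0%). At an unadjusted p under 0.05, 1 ribosomal protein gene was higher and 0 lower in set A (Rpl35), against 2.38% and 3.07% of all genes, and 0 were higher and 1 lower in set B, against 2.27% and 1.57%. All GCas9 libraries lay above all Cas9 libraries in 6 genes of set A, against 4.4% of all genes. They lay below in 0, against 4.45%, and in set B in 0 either way, against 1.23% above and 0.797% below. edgeR called 0 genes in either set (0.0%), and DESeq2 called 4 in set A (0.0251%) and 0 in set B (0.0%), none of them ribosomal protein genes. Of the 82 tested in both sets, 58 were above 0 in set A and below 0 in set B. The difference between the sets was tested gene by gene: its median was -0.14, 73 of 83 genes were below 0, and limma called 0 of 83 and 0 of 16094 genes (0.0%), with 0 of the 83 at an unadjusted p under 0.05. edgeR and DESeq2 called 0 genes in it as well.

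Cell type markers also differed between GCas9 and Cas9. In set A oligodendrocyte markers were below 0 in 8 of 8, all at an unadjusted p under 0.05 (median -0.51), and endothelial, red cell and choroid plexus markers in 5 of 5, 5 of 5 and 7 of 7. Cycling cell markers were above 0 in 4 of 4, 3 of them at that p (median 0.94), as were interferon response genes in 10 of 10 (median 0.87) and neuron markers in 5 of 5 (median 0.07). In set B, B and plasma cell markers were below 0 in 7 of 7, 4 of them at an unadjusted p under 0.05 (median -1.80). Cycling cell markers were below 0 in 4 of 4, 2 of them at that p (median -0.82), and interferon response genes in 10 of 10 (median -1.14). Microglia markers were above 0 in 8 of 15 in set A and 6 of 15 in set B. By limma 0 of these markers passed, and their part in the ribosomal protein levels was not tested.

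Both medians rested on single libraries. In set A the median was 0.003, with 43 of 84 above 0, without GCas9 library 3, and 0.02 without Cas9 library 2, and in the other direction 0.08 without Cas9 library 1 or without GCas9 library 2. In set B it turned to 0.01, with 45 of 81 above 0, without GCas9 library 1, and was -0.05 without GCas9 library 3 and -0.16 to -0.20 without Cas9 library 1, GCas9 library 2 or GCas9 library 4. The 1 gene higher in set A at an unadjusted p under 0.05 became 2 without Cas9 library 1, against 2.48% of all genes higher. The count was 0 when Cas9 library 2 or any 1 GCas9 library was left out, against 1.32 to 5.97% of all genes. The 1 lower in set B became 3 without Cas9 library 1, 6 without GCas9 library 2 and 8 without GCas9 library 4. At that p 6.93, 5.68 and 4.79% of all genes differed in either direction in these fits. The count was 0 when any 1 other library of these groups was left out, against 3 to 3.79% of all genes in either direction. The difference between the sets was -0.04, -0.21 and -0.24 without GCas9 library 1, 2 and 4 of set B. The mean of both within-set differences had a median of -0.03 (28 of 83 above 0) and ran from -0.07 without GCas9 library 4 of set B to 0.02 without GCas9 library 1 of that set. For it limma, edgeR and DESeq2 called 0 genes (0.0% of 16094), with 0 of the 83 at an unadjusted p under 0.05.

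Rpl35, at the tunnel exit, was at 883 ± 28.2 with Cas9 and 956 ± 14.9 with GCas9 in set A (SD, n = 3 each, 0.12 ± 0.05) and at 146 ± 25.8 and 124 ± 47.8 in set B (SD, n = 4 each). Among the 5 of smallest p in set B were Rpl35a (-0.45 ± 0.21), Rpl28 (-0.23 ± 0.12), Rps14 (-0.22 ± 0.12) and Rps18 (-0.19 ± 0.12), and in set A Rplp0 (-0.61 ± 0.32), Rpl34 (-0.48 ± 0.27) and Rps2 (0.21 ± 0.12). For the mean of the sets they included Rpl28 (-0.12 ± 0.08), Rpl29 (-0.24 ± 0.16), Rpl35a (-0.20 ± 0.13) and Rps14 (-0.11 ± 0.07). For the difference between the sets they included Rplp0 (0.75 ± 0.37), Rps2 (-0.32 ± 0.16), Rpl35a (-0.51 ± 0.26) and Rps7 (-0.24 ± 0.14), the smallest adjusted p by limma being 0.992.

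Several ribosomal proteins have roles of their own in other work. Rpl13a and Rps18, often used as reference genes, differed from WT by 0.09 ± 0.08 and 0.13 ± 0.06 with Cas9 and by 0.10 ± 0.08 and 0.18 ± 0.06 with GCas9. In set B they differed from GFP by 0.18 ± 0.14 and 0.27 ± 0.12 with Cas9 and by 0.14 ± 0.14 and 0.08 ± 0.12 with GCas9. Rps6, the small subunit protein whose phosphorylation reports mTOR activity, was at 2248 ± 80.2, 2360.2 ± 149.9 and 2437 ± 283 in WT, Cas9 and GCas9 of set A, a spread wider than the differences (0.07 ± 0.08 and 0.11 ± 0.08). Rpl5 and Rpl11, which with 5S RNA bind Mdm2 when assembly fails, differed from WT by 0.06 ± 0.07 and 0.09 ± 0.06 with Cas9 and from GFP by 0.20 ± 0.11 and 0.22 ± 0.10. Rpl10a and Rpl22, carriers of tags for ribosome purification, differed from WT by -0.002 ± 0.06 and 0.16 ± 0.09 with Cas9 and from GFP by 0.17 ± 0.14 and 0.20 ± 0.12. Rpsa, also known as a laminin receptor, differed from WT and GFP with Cas9 by -0.01 ± 0.05 and 0.09 ± 0.09. Rpl41, the shortest ribosomal protein, differed by -0.02 ± 0.08 from WT and by 0.39 ± 0.19 from GFP with Cas9, and none of these passed.

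The stalk genes differed among themselves in set A. Rplp1 was at 10364 ± 1429.6 in WT, 10021 ± 409 with Cas9 and 10026 ± 551 with GCas9 (SD, n = 3 each). Rplp0, the protein that anchors the stalk, was at 1384, 3064 and 2371 in WT, 3771, 2151 and 2552 with Cas9 and 1328, 2267 and 1941 with GCas9. Its WT libraries spanned the range of most others, and its coefficient of variation of 32.1% was exceeded among the 84 only by the retrocopies Rpl37rt and Rps3a3. Rpl34 of the large subunit was at 725, 1345 and 1455 in WT, 1485, 1318 and 1469.7 with Cas9 and 837, 1407 and 895 with GCas9. In 3 libraries, 1 of WT and 2 of GCas9, it stood well below the other 6. Rpl29, also of the large subunit, was at 736 in GCas9 library 3 and at 1222 to 1407 in the other libraries of set A. In set B it was at 116 in GFP library 4 and 137 in GCas9 library 2, against 186 to 270.0 elsewhere. Rpl34 and Rpl29 were singled out after their values were seen.

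Among the retrocopies, Rps3a3 was present in some libraries and nearly absent from the rest. Rps3a3 (chr13:108670603-108671397) is annotated as a processed pseudogene, within the gene Pde4d and on the same strand. Its parent Rps3a1 (chr3:86137940-86142702), a core protein of the small subunit, is the source of such a copy, and reads of near-identical copies cannot always be told apart, so both levels are uncertain. In set A Rps3a3 was at 1.92, 5.17 and 357 in WT, 3.12, 5.92 and 426 with Cas9 and 9.59, 2.16 and 412 with GCas9. Library 3 of each group was thus high and the other 6 were near 0. In set B it was at 95.8 in GFP library 2 and 144 in GCas9 library 1, and at 0 to 3.39 in the other 10.

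Rps3a1 was low in exactly those libraries. It was at 1446, 1606 and 1617 in the 3 libraries of set A with Rps3a3 and at 2086 to 2492 in the other 6. In set B it was at 223 and 224 in the 2 libraries with Rps3a3 and at 345 to 517 in the other 10. Rps3a3 made up 19.80 to 20.96% of the sum of both genes in the first 3 libraries and 30.03 and 39.17% in the pair of set B, and at most 0.847% in any other library. The sum was at 1802 to 2032 in the 3 libraries and 2088 to 2502 in the other 6 of set A, and at 319 and 369 against 345 to 517 in set B. Pde4d, the gene around Rps3a3, was at 645 to 728 in the 3 libraries and 484 to 659 in the other 6, which overlap. In set B it was at 97.5 and 99.8 in the 2 libraries with Rps3a3, above 77.5 to 97.0 in the other 10. Each group of set A held 1 such library, and in set B they were labelled GFP and GCas9. The pattern was found after the values were seen and is given as a description.

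**Figure D5:**
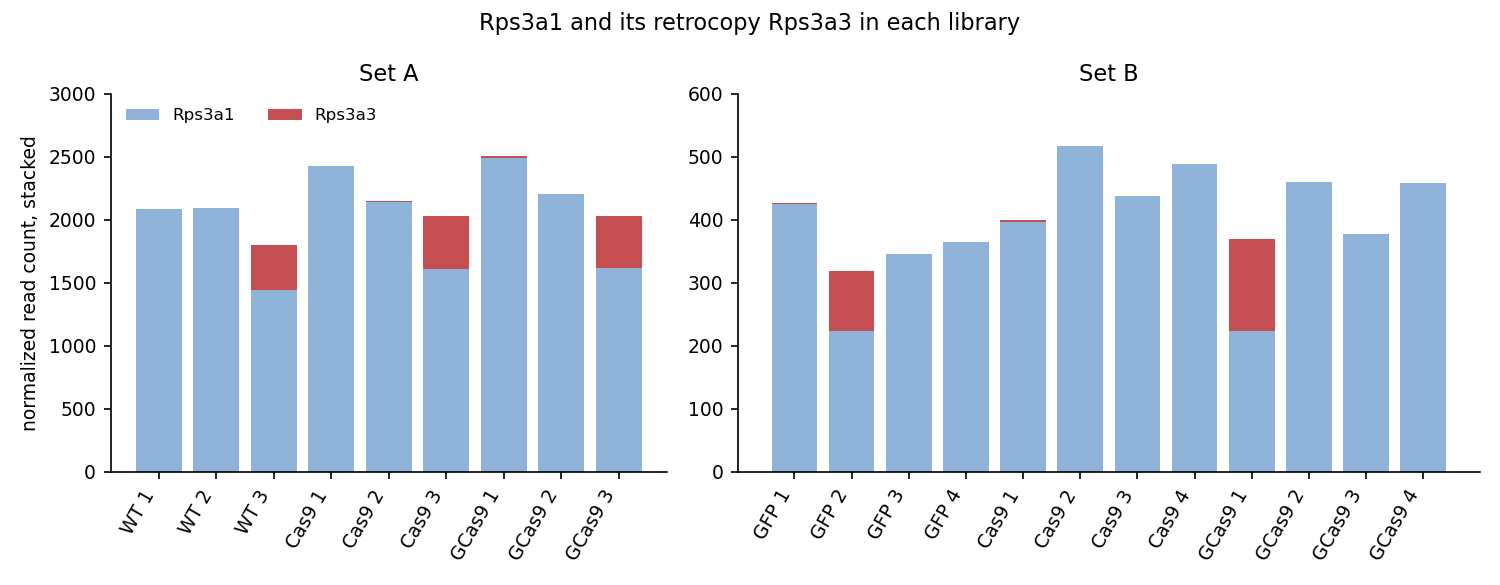
Normalized read counts of Rps3a1 (blue) and its retrocopy Rps3a3 (red), stacked, in each library of set A (left) and set B (right). Red appears in library 3 of each group of set A, at 357 to 426, and in GFP 2 and GCas9 1 of set B, and the blue part is lowest in the same libraries.

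Rps4l, a copy of Rps4x annotated as a transcribed processed pseudogene, also followed the library number in set A. It was at 229, 315 and 240.3 in WT, 251, 363 and 212 with Cas9 and 212, 374 and 274 with GCas9, with library 2 highest in each group. Rps4x was at 3614 ± 197, 3902 ± 293 and 4137 ± 372 (SD, n = 3 each). Whether reads of Rps4l and Rps4x can be told apart was not tested. Rpl22l1, which can replace Rpl22, was at 513 ± 16.2 in WT and differed by -0.06 ± 0.06 with Cas9, while Rpl22 differed by 0.16 ± 0.09. Rpl36al differed by 0.23 ± 0.11 in set A with Cas9 and its partner Rpl36a by -0.002 ± 0.06, and in set B the values were -0.03 ± 0.25 and 0.39 ± 0.20. Rpl7l1, known in ribosome assembly, differed by 0.04 ± 0.08 and 0.04 ± 0.08 and its partner Rpl7 by 0.16 ± 0.07 and 0.13 ± 0.09. Rpl3l, the muscle form of Rpl3, was at 14.2 to 35.4 in set A, against 5647 to 6469 for Rpl3. Rpl39l, the testis form of Rpl39, was at 1.08 to 14.7 in set A, and Rpl10l, the testis form of Rpl10, was listed at 0 in all libraries, against 2949 to 3844 for Rpl10 in set A. Differences between paralogs and partners were not tested.

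The rest of the translation machinery gave smaller medians in most comparisons. Of 76 mitochondrial ribosomal protein genes tested, 39 were above 0 with Cas9 in set A (median 0.007) and 44 with GCas9 (median 0.03), and in set B 67 with Cas9 (median 0.16) and 63 with GCas9 (median 0.10). Elongation factors, listed with Tpt1, Naca and Btf3, were above 0 in 7 and 8 of 10 in set A (medians 0.05 and 0.09). In set B they were above 0 in 6 and 9 of 10 (medians 0.04 and 0.12). Such mRNAs are known for the same tract, which was not examined in this list. Initiation factors and Pabpc1 were above 0 in 16 and 21 of 31 in set A (medians 0.004 and 0.02) and in 21 and 22 of 31 in set B (medians 0.02 and 0.04). Genes of ribosome assembly were above 0 in 16 and 25 of 41 in set A and in 22 and 27 of 41 in set B, with medians from -0.02 to 0.03. Regulators of mTOR and of the tract had medians from -0.03 to 0.03 in these 4 comparisons. Host RNAs of small nucleolar RNAs, also known for the tract, had medians of 0.05 and 0.11 in set A over 6 genes. In set B their medians were 0.06 and 0.04, and their tracts were not examined either. By limma 0 genes of these lists passed in any comparison.

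The share of reads that each gene took differed between the sets. Over the 76 core genes tested in both, the share in set A was 2.65 times that in set B at the median, up to 10.1 for Rps24, and above 1 in all 76. The 6 paralogs and retrocopies had a median ratio of 0.917, with Rps27l at 0.481, Rpl7l1 at 0.625 and Rps4l at 0.731. Mitochondrial ribosomal protein genes had a median ratio of 0.685, other protein-coding genes under 1 kb 0.655 and all 14486 genes 0.826. Transcripts of the mitochondrial genome made up between 6.00 and 7.57% of the reads of a library in set A, and between 1.03 and 2.18% in set B. The sets are different libraries with different depth, and the labels do not say what else differed between them.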

How the data were processed

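The 21 libraries were made from striatal total RNA with a SMARTer cDNA kit and a Nextera XT kit, per the labels' protocols. GRCm38.p3, HTSeq, DESeq2, SAMtools, R 3.3.3 and STAR 2.5.2b are listed, without roles, in the submitters' processing notes; whether counting used strand is not given in the sources used here. The deposited values are a signal per gene, read counts that the authors divided by a size factor per library, per the notes' tools and the values: dividing by the step found for a library gave whole reads, within 0.001 reads, for 100% of values.

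After adding 1 and taking log2, limma 3.58.1 (R 4.3.3) was fitted (moderated variance with trend, two-sided) over genes with a mean of at least 10, with the 3 groups of a set in 1 fit, or all 21 libraries for the mean of the sets and their difference. Fold changes are on that scale, with SE. P-values were adjusted by Benjamini-Hochberg over all genes tested. Alternatives were edgeR 4.0.16 and DESeq2 1.42.0 on recovered reads, quantile normalization, a pseudocount of 0.5, no low-value filter, only the groups compared, a replicate block and leaving out each library. The limma step was tested on simulated data with changes larger than the median differences reported here. The simulation therefore does not show whether differences this small would be found. The labels name no molecular identifiers, so depth gives counting error only.

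Members and lists were chosen with earlier results of these data known. Genes named are those past the threshold or the 5 of smallest p in each comparison, the 3 highest and 3 lowest per kb, and a list of stalk proteins, Rpsa, Rps6, Mdm2 binders, tag carriers, reference genes, Rpl41 and paralogs with partners; others are said to have been chosen after their values were seen. A few genes under this rule are not reported here. Positions and lengths are from GENCODE M21 (GRCm38; 90 of 91 matched), start regions from RefSeq. The 246 pseudogene symbols took 0.002 to 0.004% of reads and were left out.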

Additional observations from a re-analysis of the deposited data

Results flagged for a closer look

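In groups of 4 libraries, 99 sets of values (the named genes and the median of the ribosomal protein genes) were examined for a library that lies apart from the other 3, and 7 were found. Chance gives about 1 in 20. The median difference of the ribosomal protein genes from the GFP mean was -0.1228 in GFP library 3, below 0.036 to 0.0543 in the other GFP libraries. It was 0.05155 in Cas9 library 1 of set B, below 0.293 to 0.299 in the other Cas9 libraries. Rps15 (353.6) and Rpl13a (454.6) were lowest in the same GFP library 3, the others lying at 408 to 414 and 543 to 553 normalized counts. Rps9 was at 498.8 in GFP library 1, below 545.5 to 552.3, and Rpl12 at 270.2 in GFP library 2, above 232 to 237. Rps4l was at 188.8 in Cas9 library 3 of set B, above 113 to 122.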

How the results depend on the processing

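DESeq2 called 1 ribosomal protein gene for Cas9 against WT and 3 for GCas9 against WT, where limma called 0, and the cause was not tested. All 110 other counts and medians under the alternatives that keep every library stayed within the spread between replicates, or at 0 calls. The 140 with 1 library left out also stayed within that spread, and the counts of ribosomal protein genes past the threshold were 0 throughout. Within it, though, several medians moved more than 1.5-fold. Those for GCas9 against Cas9 in set B and for the mean of the sets changed sign without GCas9 library 1 of set B. The medians then ran from 0.0323 to 0.1099 for Cas9 against WT, 0.0822 to 0.1591 for GCas9 against WT, 0.0027 to 0.079 for GCas9 against Cas9 in set A, 0.184 to 0.29 for Cas9 against GFP, 0.0412 to 0.2486 for GCas9 against GFP, -0.1978 to 0.0089 for GCas9 against Cas9 in set B, -0.0724 to 0.0227 for the mean of the sets and -0.2365 to -0.0421 for their difference. Whether replicate numbers pair the libraries is not given in the labels, and the correlations were mixed. Same-numbered libraries of different groups had correlations of deviations over all genes between -0.0186 and 0.644 (set A) and between -0.13 and 0.462 (set B), above 0.1 in 6 of 9 and 7 of 12 pairs, and 8 of 9 and 7 of 12 libraries were closest to their own number, a hint from the data and not from the design. With a replicate block, 0 ribosomal protein genes passed in any comparison and medians were as without it (0.0691 for Cas9 against WT), while genes called in all were 2 for Cas9 and 2 for GCas9 against WT and 5 for GCas9 against GFP. At an unadjusted p under 0.05, the block gave 14 ribosomal protein genes higher for Cas9 against WT and 32 for GCas9 against WT. Without the block 7 and 27 were higher. For Cas9 and GCas9 against GFP the counts were 26 and 7 with the block and 16 and 6 without it. Of all genes 7.7, 5.86, 3.38 and 3.58% were higher with the block in these 4 comparisons, in that order. Without it 6.17, 4.44, 3.23 and 3.71% were. With only the groups compared in the fit, limma called 6 genes in all for Cas9 against WT and 7 for GCas9 against GFP, none of them ribosomal protein genes. Depth limits set B most, with 6091590 to 11069902 reads on genes per library against 20337070 to 28045057 in set A. The median ribosomal protein gene tested had a mean normalized count of 343 in set B and 2595 in set A. These counts do not measure depth alone. The sets were scaled apart, and the share of reads of core genes was 2.65 times higher in set A at the median.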
